A study of Mus musculus with 12 samples.

Results

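The genes described here are the 7 mesenchymal transcription factor genes Twist1, Twist2, Snai1, Snai2, Zeb1, Zeb2 and Prrx1, taken by name from the 22350 protein-coding genes annotated on chromosomes 1 to 19 and X. They were followed across 6 histone marks in C2C12 cells, a mouse myoblast line of strain C3H that fuses into myotubes when serum is withdrawn. The myoblasts were untreated and close to confluent in 10% serum, at passages 15 to 18. The myotubes were harvested about 5 days after serum withdrawal and were freed of unfused cells by light trypsinization. The labels give no other allele or treatment that separates the 2 cell types. Both are cultures of 1 cell line and so stand for that line rather than for muscle tissue. Each mark was profiled in each cell type by chromatin immunoprecipitation and sequencing (ChIP-seq) of 1 library. There are thus no replicates, and the values are not corrected for input chromatin.

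The 12 libraries held 1858771 to 7033100 uniquely aligned reads, a genome mean of 0.727 to 2.75 reads per kb. Of the reads of a library, 0.416% to 3.14% were further copies at a position and strand already counted once. Marker genes were read first as a check of the labels. All 8 myotube genes of the marker list, among them Myh3 and Ckm, had H3K4me3 and H3K27ac past 2-fold higher in myotubes at their promoters, and all 4 proliferation genes had both marks past 2-fold lower. Of the 8 genes chosen to mark other cell types, 1 promoter was above the genome mean for H3K4me3 in myoblasts and 1 in myotubes. Over all promoters the shares were 54.6% and 54.3%. For H3K27ac the counts were also 1 and 1, against 51.6% and 50.6%. The 1 in myoblasts was Krt14, an epithelial gene, with 15 H3K27ac reads (10.3-fold) there and 6 in myotubes, past 2-fold lower. In a culture, fewer cells with a mark and less of the mark per cell cannot be told apart.

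Twist1 and Twist2 are basic helix-loop-helix proteins that pair with E proteins such as Tcf3 and bind E-boxes, which have the letters CANNTG. Snai1 and Snai2 (Snail and Slug) and Zeb1 and Zeb2 are zinc finger repressors that prefer the E-box CAGGTG and are best known for silencing E-cadherin (Cdh1) during epithelial to mesenchymal transition. Prrx1 is a paired-related homeodomain protein of limb and connective tissue mesenchyme. In muscle, Twist, Snail and Zeb proteins are known to hold back myogenic factors at E-boxes of muscle genes. H3K4me3 and H3K4me2 mark promoters, H3K27ac marks active promoters and enhancers, H3K4me1 marks enhancers, H3K36me3 lies over transcribed gene bodies and H3K27me3 is the mark of Polycomb repression.

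A promoter is the 2 kb from 1 kb before to 1 kb after a transcription start site (TSS). Each gene has 1 TSS, the annotated start with the most H3K4me3 reads in the 2 cell types together. Fold enrichment is the number of fragment midpoints over the mean of the same library, and a site is called above the genome mean where its exact Poisson 95% interval starts above 1-fold. The ratio of myotubes to myoblasts is given relative to the median ratio of all promoters whose 2 libraries add up to at least 20 reads, because that median was itself 0.869 for H3K4me3, 0.594 for H3K4me2, 0.570 for H3K27ac and 0.871 for H3K4me1 after scaling by total reads. A relative ratio of at least 2 or at most 0.5 is called higher or lower in myotubes. Intervals cover counting error only, and each comparison is of 2 libraries and not of replicated conditions.

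Of the 7 genes, 6 carried H3K4me3 and H3K27ac at the promoter in both cell types, and Twist1 carried neither. H3K4me3 was above the genome mean at 6 promoters in myoblasts, against 54.6% of all promoters, and at 6 in myotubes, against 54.3%. H3K27ac was above it at the same 6 promoters in myoblasts (51.6% of all promoters) and in myotubes (50.6%). H3K4me2 was above it at 7 promoters in myoblasts (61.7%) and 6 in myotubes (59.0%), and H3K4me1 at 3 (48.5%) and 5 (47.6%). H3K27me3 was above the genome mean at 1 promoter in myoblasts, that of Twist1, where 18.1% of all promoters were, and at 0 in myotubes, where 12.6% were. No member promoter was above the mean for both H3K4me3 and H3K27me3, a pair found at 5.21% of promoters in myoblasts and 2.43% in myotubes. H3K36me3 was above it at 2 promoters in each cell type, those of Snai1 and Snai2, against 13.7% and 11.5%.

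**Figure D1:**
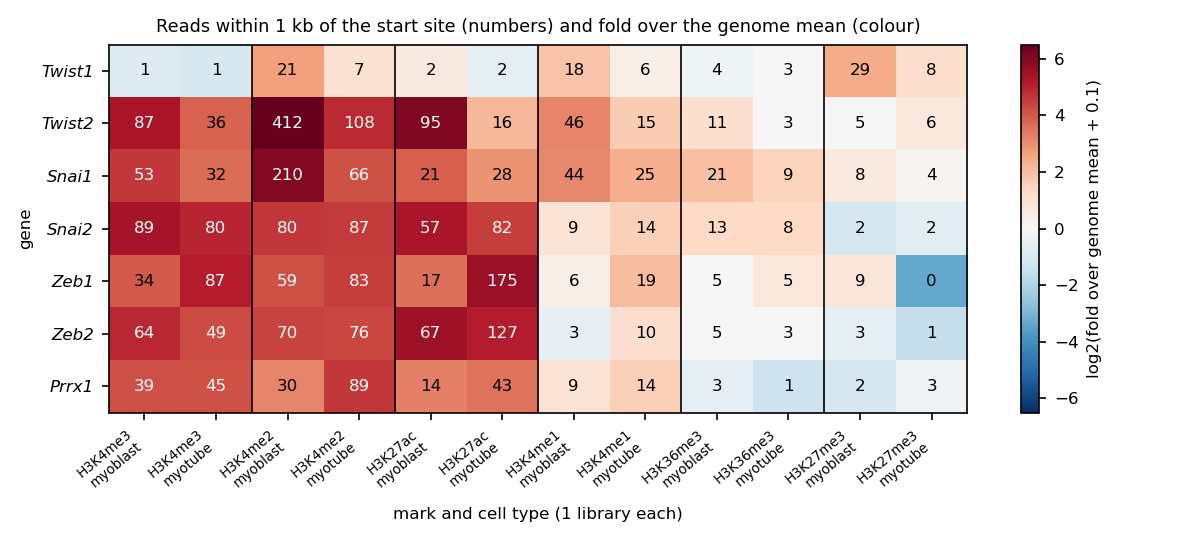
Reads within 1 kb either side of the TSS of each gene (rows) in each of the 12 libraries (columns, 1 library each), with the number of reads printed and the colour giving log2 of the fold over the genome mean plus 0.1. Twist1 held 1 H3K4me3 read in each cell type and 29 H3K27me3 reads in myoblasts, while the other promoters held 32 to 89 H3K4me3 reads.

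The order of the genes by promoter H3K27ac was not the same in the 2 cell types. In myoblasts Twist2 was highest at 65.4-fold (95% interval 52.9 to 79.9), ahead of Zeb2 at 46.1-fold (35.7 to 58.5) and Snai2 at 39.2-fold (29.7 to 50.8), and each of these overlapped its neighbour. Snai1 at 14.4-fold (8.95 to 22.1), Zeb1 at 11.7-fold (6.81 to 18.7) and Prrx1 at 9.63-fold (5.27 to 16.2) formed a lower set whose intervals overlapped each other and stayed below that of Snai2. In myotubes Zeb1 was highest at 47.4-fold (40.6 to 54.9), and its interval overlapped that of Zeb2 at 34.4-fold (28.7 to 40.9). Snai2 followed at 22.2-fold (17.6 to 27.6), Prrx1 at 11.6-fold (8.42 to 15.7), Snai1 at 7.58-fold (5.04 to 10.9) and Twist2 at 4.33-fold (2.48 to 7.03). Twist1 came last in both, at 1.38-fold (0.167 to 4.97) in myoblasts and 0.541-fold (0.0656 to 1.95) in myotubes. Twist2 was thus the first in the myoblast library and the last but Twist1 in the myotube library. Zeb1, at the start used here, moved from the lower set to the top. The first place of Zeb1 depends on that start. In the 2 kb around its start at 5591858 H3K27ac was 17.9-fold in myoblasts and 31.4-fold in myotubes, the latter below Zeb2.

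Between the cell types, the promoters called at 2-fold were few and went in both directions. For H3K4me3, 1 of 6 promoters tested was higher in myotubes, that of Zeb1, and 1 was lower, that of Twist2, against 4.86% and 4.57% of all 11492 promoters tested. For H3K27ac, 2 of 6 were higher (Zeb1 and Prrx1) and 1 was lower (Twist2), against 14.7% and 13.0% of 10874. For H3K4me2, 2 of 7 were higher (Zeb1 and Prrx1) and 2 were lower (Twist2 and Snai1), against 8.60% and 9.02% of 13365. For H3K4me1, 1 of 6 was higher (Zeb1) and 2 were lower (Twist1 and Twist2), against 13.2% and 13.3% of 11914. Twist2 was lower and Zeb1 higher for each of these 4 marks.

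**Figure D2:**
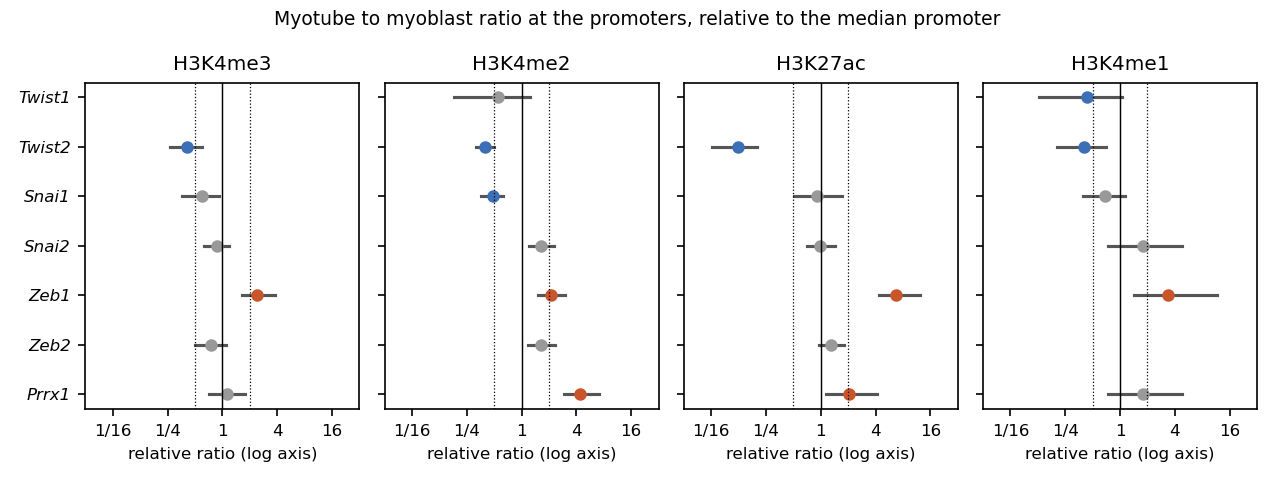
Ratio of myotubes to myoblasts at the promoters relative to the median promoter, on a log axis, for 4 marks; points are the ratio with 1 read added, lines the exact 95% binomial interval, dotted lines 0.5 and 2, and genes under 20 reads are left out. Orange points are called higher in myotubes, blue points lower and grey points neither. Twist2 is blue in all 4 panels and Zeb1 orange in all 4.

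Twist1 (chr12:34642536-34644682 in mm9, plus strand, 1 annotated TSS), which is needed for cranial neural crest and limb mesenchyme, had neither H3K4me3 nor H3K27ac above the genome mean in these libraries. Its promoter held 1 H3K4me3 read in each cell type and 2 H3K27ac reads in each. H3K4me2 read 21 in myoblasts (6.26-fold, 3.87 to 9.56) and 7 in myotubes, with a relative ratio of 0.55 (0.18 to 1.24) that did not reach the threshold. H3K4me1 read 18 and 6, a relative ratio of 0.44 (0.13 to 1.04) that was called lower but became 0.55 with 5 reads added. H3K27me3 was the mark that stood out, with 29 reads in myoblasts, 5.29-fold (3.54 to 7.59) and at the 96.4th percentile of all promoters, against 8 reads in myotubes, 2.04-fold (0.881 to 4.02). The relative ratio of H3K27me3 was 0.53 with an interval of 0.19 to 1.10 that includes 1. Over the 202 kb of the gene and its flanks H3K27me3 lay at 2.13-fold in myoblasts and 1.72-fold in myotubes, while H3K27ac lay at 0.238-fold and 0.246-fold. Of all 3405 promoters tested for H3K27me3, 6.67% were higher and 10.5% lower in myotubes. Scaled by total reads alone, the H3K27me3 ratio at the promoter was 0.42 and would be called lower.

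Twist2 (chr1:93698038-93744605, plus strand, 1 annotated TSS), the close relative of Twist1 in dermis and other mesenchyme, had the highest promoter H3K4me2 and H3K27ac of the 7 in myoblasts, although its H3K27ac interval overlapped that of Zeb2. Its H3K4me2 count there was 412 reads, 123-fold (111 to 135) and at the 99.8th percentile of all promoters, and fell to 108 reads in myotubes, 29.0-fold. H3K4me3 read 87 and 36, with a relative ratio of 0.41 (0.26 to 0.60). H3K27ac read 95 and 16 although the myotube library was the deeper of the pair, a relative ratio of 0.12 (0.064 to 0.20). H3K4me1 read 46 and 15, a relative ratio of 0.40 (0.20 to 0.71). H3K27me3 read 5 and 6, within the genome mean in both. The loss was thus largest in H3K27ac, and 36 H3K4me3 reads (14.0-fold, 9.78 to 19.3) were still there in myotubes. In 1 kb centred on the TSS the relative ratio was 0.53 for H3K4me3, 0.69 for H3K4me2 and 0.94 for H3K4me1, so these 3 calls needed the outer part of the 2 kb window.

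A stretch upstream of Twist2 is shown because it holds 2 copies of GCTCG, the core of the sequence that the transcription factor ZBED6 binds. Most of the stretch lies in the outer part of the window on which those calls rest. The outer part of the window also has a side downstream of the TSS, and which side the calls rest on was not tested. The 3 GCTCG cores within 1 kb before the TSS, counted on both strands, lie 980, 691 and 574 bases before it. The 300 bases with the latter pair are chr1:93697322-93697621 of mm9, plus strand, with GCTCG (or its reverse complement) and the E-box CANNTG in capitals.
Twist2 upstream: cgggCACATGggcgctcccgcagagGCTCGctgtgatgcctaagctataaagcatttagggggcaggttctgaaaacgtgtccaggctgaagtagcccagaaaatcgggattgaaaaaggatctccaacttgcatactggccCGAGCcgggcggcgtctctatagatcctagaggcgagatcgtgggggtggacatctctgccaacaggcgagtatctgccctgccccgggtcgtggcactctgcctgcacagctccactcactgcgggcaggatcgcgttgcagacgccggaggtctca
The stretch was picked for its copies of GCTCG, so its count has no background share. In the window from 250 bases before to 50 after the TSS, Twist2 has 0 copies, and 37.2% of all promoters have at least 1.

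Snai1 (chr2:167363695-167368314, plus strand, 1 annotated TSS), the Snail repressor that also sits on E-boxes of muscle genes in myoblasts, kept its promoter marks with smaller differences. H3K4me3 read 53 in myoblasts and 32 in myotubes, a relative ratio of 0.59 (0.36 to 0.92). H3K4me2 read 210 and 66, a relative ratio of 0.48 (0.36 to 0.63) that was just past the threshold. H3K27ac read 21 and 28, a relative ratio of 0.91 (0.50 to 1.70), and H3K4me1 read 44 and 25, a relative ratio of 0.69. The H3K4me2 call was lost with 1 read per position and strand (0.50), in 5 kb around the TSS (0.52) and in 1 kb centred on it (0.71). Over the gene body, from 1 kb downstream of the TSS, H3K4me2 read 276 and 110 and was called lower. Its ratio to the median body was 0.31 (0.24 to 0.38). The deposited H3K4me3 peak of myoblasts covered the TSS and was 4284 bp wide, at the 93.6th percentile of promoters with a peak. The myotube peak was 2545 bp wide and began 431 bases downstream of the TSS.

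Snai2 (chr16:14705945-14709488, plus strand, 1 annotated TSS), or Slug, the neural crest member of the Snail family, had a promoter that did not pass 2-fold for any mark tested. H3K4me3 read 89 and 80, a relative ratio of 0.87 (0.64 to 1.19). H3K27ac read 57 and 82, a relative ratio of 0.99 (0.70 to 1.42). H3K4me2 read 80 and 87, a relative ratio of 1.65 (1.21 to 2.27), and H3K4me1 read 9 and 14. Over the gene body, from 1 kb downstream of the TSS, H3K4me3 read 76 and 44 and was called lower. Its ratio to the median body was 0.50 (0.33 to 0.72). H3K4me1 over the body read 7 and 23 and was called higher, at 3.06 (1.39 to 9.26). Its H3K4me3 peak was 4640 bp wide in myoblasts, more than the length of the gene, and 3723 bp in myotubes, at the 95.8th and 89.0th percentiles.

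The 250 bases before the TSS of the Snail pair are shown to compare their E-boxes, since Snail proteins themselves bind such boxes. Each has 1 E-box, in capitals on the gene strand: CACCTG, the reverse complement of CAGGTG, in Snai1 (chr2:167363445-167363694) and CAGCTG in Snai2 (chr16:14705695-14705944). Capitals in Snai1 also mark 1 GCTCG.
Snai1: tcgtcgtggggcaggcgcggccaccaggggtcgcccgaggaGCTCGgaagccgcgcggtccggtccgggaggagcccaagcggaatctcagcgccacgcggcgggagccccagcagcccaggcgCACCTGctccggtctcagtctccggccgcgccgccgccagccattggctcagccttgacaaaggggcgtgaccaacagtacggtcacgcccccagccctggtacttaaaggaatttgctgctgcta
Snai2: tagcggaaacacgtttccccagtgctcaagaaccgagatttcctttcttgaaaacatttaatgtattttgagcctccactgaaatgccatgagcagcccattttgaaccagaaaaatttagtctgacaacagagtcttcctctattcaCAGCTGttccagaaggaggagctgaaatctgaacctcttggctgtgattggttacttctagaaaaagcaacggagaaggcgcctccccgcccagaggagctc
CAGGTG was found on either strand in 19.8% of all promoters of 300 bases, CAGCTG in 15.4% and any CANNTG in 67.7%. Of the 7 genes, 1 had CAGGTG, 1 had CAGCTG and 3 had any CANNTG in this window. The Snail pair also differed in base composition, with a GC content of 70.0% for Snai1 (85.3rd percentile) and 50.7% for Snai2 (32.4th percentile) in the 300 bases.

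Zeb1 (chr18:5591858-5775465, plus strand, 8 annotated start sites), the zinc finger homeobox repressor of Cdh1, had the highest ratios of myotubes to myoblasts for H3K4me3, H3K27ac and H3K4me1. At the start site with the most H3K4me3, H3K4me3 read 34 in myoblasts and 87 in myotubes, a relative ratio of 2.43 (1.65 to 3.80). H3K27ac read 17 and 175, a relative ratio of 6.74 (4.31 to 12.5), from the 60.5th to the 95.9th percentile of promoters. H3K4me2 read 59 and 83, a relative ratio of 2.13 (1.51 to 3.04), and H3K4me1 read 6 and 19, a relative ratio of 3.39 (1.44 to 11.5). H3K27me3 read 9 in myoblasts and 0 in myotubes, where 3 reads would be 0.765-fold, which is too few to compare.

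The higher Zeb1 H3K4me3 lay at the start sites from 5593532 to 5594201 and not at those on either side. In 1 kb centred on the site at 5593532, H3K4me3 read 19 and 54, a relative ratio of 2.66 (1.61 to 4.92), and H3K27ac read 7 and 100, a relative ratio of 8.71 (4.61 to 25.1). At the site at 5591858, 1674 bases upstream, H3K4me3 read 24 and 18, a relative ratio of 0.74 (0.37 to 1.40), while H3K27ac read 18 and 71, a relative ratio of 2.61 (1.60 to 4.85). The most downstream site, at 5603742, read 17 and 11 for H3K4me3, a relative ratio of 0.65 (0.27 to 1.42), and 11 and 26 for H3K27ac, a relative ratio of 1.55 (0.78 to 3.66), and both intervals include 1. The intervals of the first pair of sites do not overlap for H3K4me3. With the promoter placed at 5591858 and 1 kb either side, the relative ratio was 0.67 for H3K4me3, 0.65 for H3K4me2, 0.49 for H3K4me1 and 3.00 for H3K27ac, so of the 4 calls that of H3K27ac alone kept its direction at both of these starts. The downstream site was chosen by its H3K4me3 over both cell types, in which the myotube reads weigh most. In 5 kb around it the H3K4me3 ratio was 1.49 and the H3K4me2 ratio 1.31, and the latter was 1.26 when scaled by total reads alone. The upstream start overlaps the divergent gene Gm10125, whose own promoter reads (31 and 168 for H3K27ac) are partly the same reads.

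Zeb2 (chr2:44839154-44972915, minus strand, 10 start sites), the relative of Zeb1 known from neural crest, had similar counts in the 2 libraries at its main start. H3K4me3 read 64 and 49, a relative ratio of 0.74 (0.50 to 1.09). H3K27ac read 67 and 127, a relative ratio of 1.30 (0.96 to 1.79). H3K4me2 read 70 and 76, a relative ratio of 1.65 (1.18 to 2.32), which was 3.11 and called higher in 1 kb centred on the TSS. What differed was breadth: the H3K4me3 peak was 6260 bp wide in myoblasts, at the 99.0th percentile of 10678 promoters with a peak, and 2017 bp in myotubes, at the 40.2nd percentile of 10285. The ends of the wide peak took in the start sites at 44968736 to 44969028, where H3K4me3 at the first read 27 and 13 in 1 kb, a relative ratio of 0.48 (0.22 to 0.94). The noncoding gene Gm13476 is annotated on the other strand over those sites.

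Prrx1 (chr1:165175247-165243841, minus strand, 5 start sites) had H3K4me3 of 39 and 45 reads, a relative ratio of 1.11 (0.71 to 1.76). H3K4me2 read 30 and 89, a relative ratio of 4.41 (2.95 to 7.06), the highest of the 7 genes for that mark. H3K27ac read 14 and 43, a relative ratio of 2.02 (1.14 to 4.19). The H3K27ac call is marginal, since the ratio was 1.80 with 5 reads added, 1.56 in 1 kb, 1.48 in 5 kb and 1.15 when scaled by total reads alone. The H3K4me3 peak was 3815 bp wide in myoblasts and 4500 bp in myotubes, where it was at the 94.5th percentile and the widest of the 7. Median widths over all promoters with a peak were 2437 bp and 2218 bp. Peak widths depend on the depth and score limit of each list.

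H3K36me3 over the gene bodies, counted from 1 kb downstream of the TSS to the gene end, was lower in myotubes at 4 genes and higher at 0 of the 6 tested. Over all 15344 gene bodies tested, 7.21% were lower and 7.44% higher, and ratios are relative to their median, which was 1.02 by total reads. H3K36me3 was above the genome mean over 6 of the 7 bodies in myoblasts (53.8% of all bodies) and 5 in myotubes (54.0%). The 4 were Twist2, Snai2, Zeb2 and Prrx1, 3 of which did not pass 2-fold lower for any mark at the promoter of the start used. The Zeb2 start at 44968736, which was not the one used, had an H3K4me3 relative ratio of 0.48 in 1 kb. At Snai2, H3K4me3 over the body was called lower (0.50).

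Prrx1 read 1129 in myoblasts and 219 in myotubes, that is 6.08-fold (5.73 to 6.44) and 1.92-fold (1.68 to 2.20), with a relative ratio of 0.31 (0.27 to 0.36). Zeb2 read 1494 and 413, or 4.31-fold (4.09 to 4.53) and 1.94-fold (1.76 to 2.14), with a relative ratio of 0.44 (0.40 to 0.49). Twist2 read 376 and 102, or 3.00-fold and 1.33-fold, with a relative ratio of 0.44 (0.35 to 0.54). These 3 bodies gave the most reads and the narrowest intervals of those called. Snai2 read 64 and 8 over a body of 2544 bp, or 9.15-fold (7.05 to 11.7) and 1.86-fold (0.805 to 3.68), with a relative ratio of 0.22 (0.083 to 0.42). Snai1 had the densest H3K36me3 of the 7 per kb, with 108 reads (10.9-fold, 8.90 to 13.1) in myoblasts and 46 (7.54-fold, 5.52 to 10.0) in myotubes, a relative ratio of 0.69 (0.47 to 0.97) that was not called. Zeb1 read 1059 and 685, or 2.13-fold (2.00 to 2.26) and 2.25-fold (2.08 to 2.42), with a relative ratio of 1.04 (0.94 to 1.14). Zeb1, with the largest H3K27ac ratio at the promoter, thus had H3K36me3 at a near equal level in the 2 libraries, and its interval excludes a ratio of 1.5. Twist1 held 1 read in each library over 1147 bp and was not tested.

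**Figure D3:**
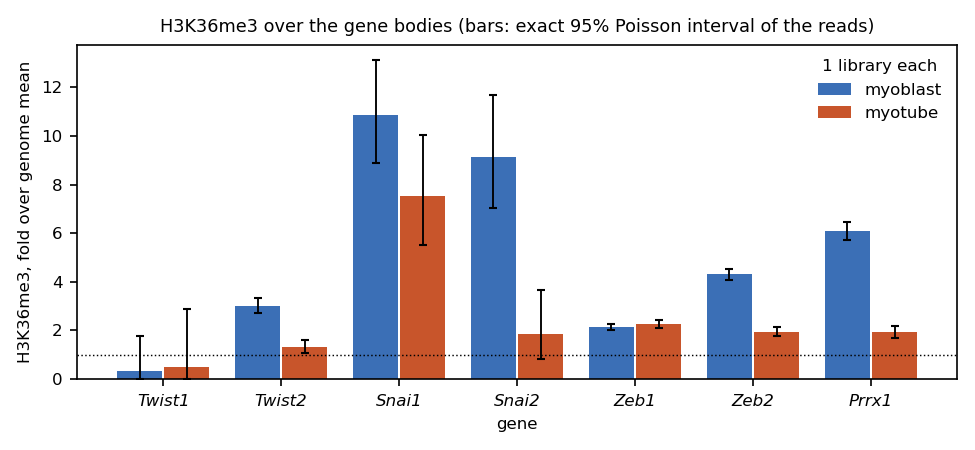
H3K36me3 over the body of each gene as fold over the genome mean (vertical axis from 0), blue for the myoblast and orange for the myotube library, 1 library each, with exact 95% Poisson intervals of the read count and a dotted line at the genome mean. The blue bars of Prrx1, Zeb2, Snai2 and Twist2 (6.08, 4.31, 9.15 and 3.00) stand above their orange bars (1.92, 1.94, 1.86 and 1.33), and those of Zeb1 are level.

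H3K27me3 over the bodies was above the genome mean at Twist1 alone, with 9 reads in myoblasts (2.86-fold, 1.31 to 5.43) and 7 in myotubes (3.11-fold, 1.25 to 6.41), against 24.1% and 31.4% of all bodies. Of the 4 bodies tested for H3K27me3 none passed 2-fold in either direction, where 4.93% of all bodies were higher and 2.35% lower. Over Zeb2 it was 0.679-fold and 0.732-fold, over Zeb1 0.870-fold and 0.837-fold, and over Prrx1 0.820-fold and 0.770-fold. The 4 genes that were lower in H3K36me3 had no H3K27me3 above the genome mean over the body or the promoter in the myotube library. Over the 247 kb of Twist2 and its flanks H3K27me3 was 1.52-fold in myoblasts and 1.70-fold in myotubes, so the mark lay outside its body there.

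Candidate enhancers were taken as the deposited H3K4me1 peaks of either cell type, merged, at least 2 kb from any annotated TSS and within 100 kb of a gene. There were 167 such regions around the 7 genes, of 82397 in the genome, with 51 around Zeb1, 40 around Prrx1, 26 around Twist2, 25 around Snai1, 23 around Zeb2 and 1 each around Twist1 and Snai2. H3K27ac, which did not choose them, could be compared at the 40 with at least 20 reads. It was lower in myotubes at 20 and higher at 2, against 25.5% and 26.9% of the 16846 regions tested in the genome, and the median relative ratio was 0.50, where the median of all regions is 1 by construction. Twist2 gave 8 of the 20; without it 12 of 32 (37.5%) were lower. A wider region tends to hold more reads and so reaches 20 more often. How the H3K4me1 peak widths of the 2 lists affected these shares was not tested. With short peaks widened to 1 kb, an alternative chosen after seeing the data, 22 of 50 (44.0%) were lower and 6 were higher, against 27.8% lower in the genome. H3K27ac was above the genome mean at 74 of the 167 regions in myoblasts, where 32.1% of all regions were, and at 84 in myotubes, where 45.0% were.

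**Figure D4:**
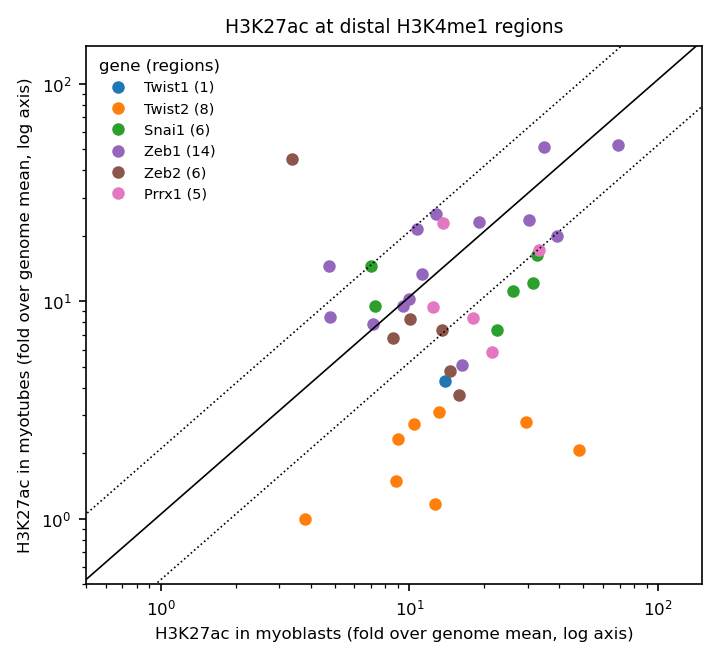
H3K27ac in the myoblast library (horizontal) and the myotube library (vertical) at the 40 tested distal H3K4me1 regions, as fold over the genome mean on log axes, coloured by gene with the number of regions in the legend. The solid line is the median ratio of all distal regions and the dotted lines are 2-fold above and below it. All 8 Twist2 points lie below the lower dotted line, while 11 of the 14 Zeb1 points lie between the dotted lines.

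Twist2 had lower H3K27ac in myotubes at 8 of 8 tested regions, with relative ratios of 0.045 to 0.26. The region with the most reads per kb in myoblasts, chr1:93711748-93714097 inside the gene, 14884 bases downstream of the TSS, read 82 in myoblasts (48.0-fold) and 9 in myotubes (2.07-fold), a relative ratio of 0.045 (0.018 to 0.082). A second region in the gene, chr1:93718009-93722076, read 87 and 21, a relative ratio of 0.094. Downstream of the gene, chr1:93752957-93756212 read 30 and 7, a relative ratio of 0.097. Over the 26 Twist2 regions together H3K27ac went from 10.4-fold to 1.79-fold and H3K4me1 from 15.0-fold to 5.30-fold, where all distal regions went from 10.3-fold to 10.1-fold and from 12.5-fold to 7.83-fold. The region at the far edge, chr1:93839629-93845394 (55 and 33 reads), runs past the end of the window and was counted whole. Its nearest TSS is one of Hdac4.

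The 300 bases densest in H3K27ac within the strongest Twist2 region, chr1:93713538-93713837 (plus strand), are shown because that region had the lowest ratio of all 40; they hold 25 of its reads in myoblasts and 3 in myotubes, and 1 E-box, CACCTG, in capitals.
Twist2 distal region: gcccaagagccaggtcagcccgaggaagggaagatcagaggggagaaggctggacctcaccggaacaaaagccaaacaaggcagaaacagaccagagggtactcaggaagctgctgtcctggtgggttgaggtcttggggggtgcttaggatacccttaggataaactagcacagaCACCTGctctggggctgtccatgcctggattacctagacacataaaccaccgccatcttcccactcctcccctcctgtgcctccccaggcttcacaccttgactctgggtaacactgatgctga
CAGGTG on either strand was found in the central 300 bases of 22.8% of all distal regions, and any CANNTG in 85.0%.

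Zeb1 had most of its tested regions close to the genome median, with 1 of 14 higher, 2 lower and a median relative ratio of 1.003. The strongest, chr18:5818378-5822422, lies 226867 bases downstream of the TSS and beyond the gene end, and read 202 (68.7-fold) and 390 (52.2-fold), a relative ratio of 0.72 (0.61 to 0.86). Beside it, chr18:5833620-5836266 read 67 and 250, a relative ratio of 1.38, and chr18:5805185-5810226 read 144 and 185, a relative ratio of 0.48. The 3 made up a block of high H3K27ac in both cell types downstream of the gene. The region called higher, chr18:5619209-5620661 in the gene, read 5 and 39, a relative ratio of 2.5 (1.15 to 9.51). The lowest, chr18:5801918-5804462, read 30 and 24, a relative ratio of 0.30 (0.17 to 0.53). The noncoding gene AC127028.1 had the TSS nearest to all of these regions, and which gene they act on was not tested. Over the whole Zeb1 body, which takes in the start site at 5603742, H3K27ac read 162 and 779 and was called higher. Its ratio to the median body was 2.01 (1.71 to 2.41). H3K4me1 over the body read 713 and 1612 and was also called higher, at 2.31 (2.11 to 2.52).

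**Figure D5:**
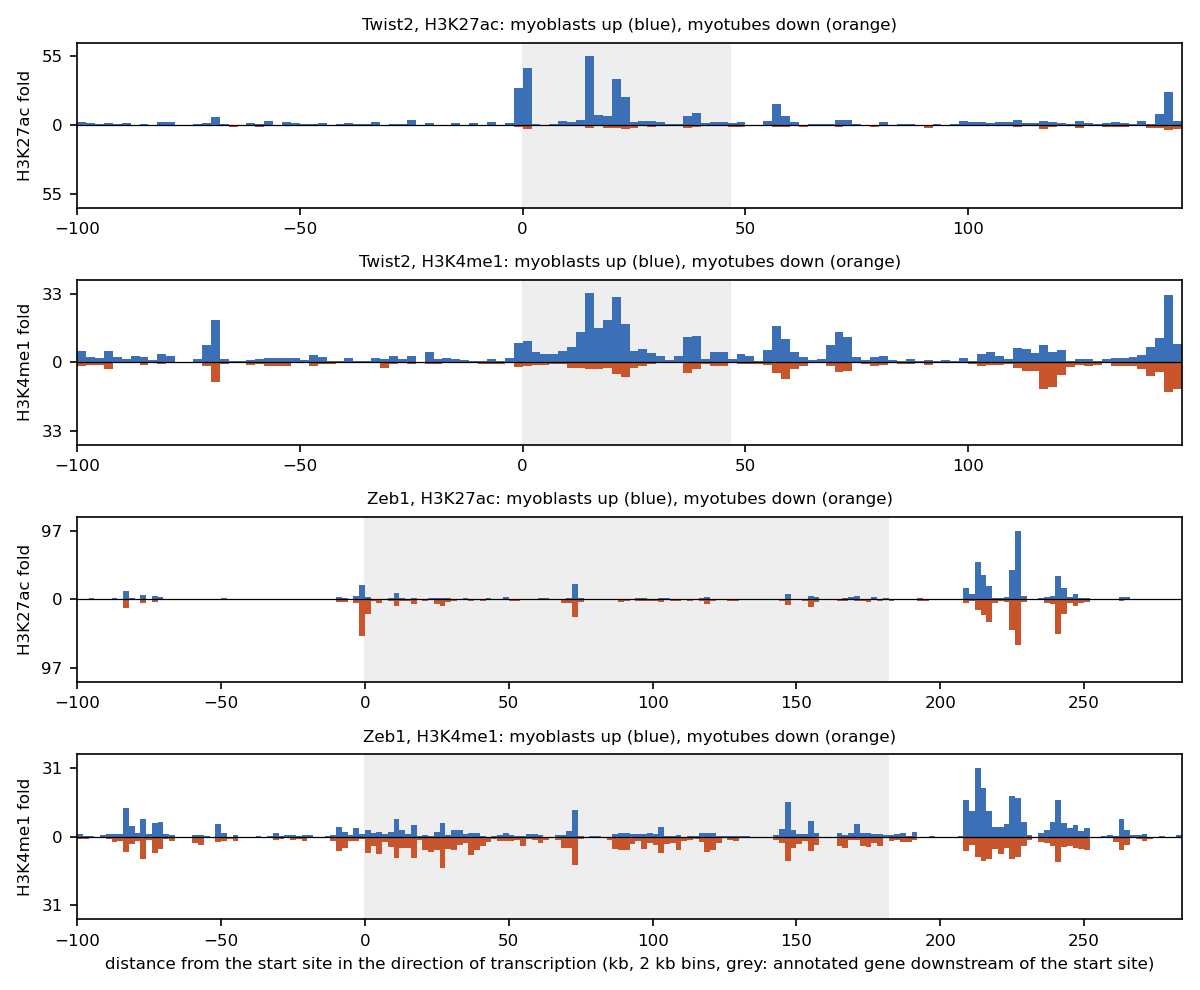
H3K27ac and H3K4me1 along the Twist2 and Zeb1 loci in 2 kb bins, as fold over the genome mean, against the distance from the TSS in kb in the direction of transcription, with the myoblast library drawn upward in blue, the myotube library downward in orange and the annotated gene in grey. At Twist2 the tall blue H3K27ac bins at the TSS and inside the gene have no orange counterpart of like height, while at Zeb1 the block beyond 200 kb is present in both and the TSS bin is mainly orange.

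Snai1 had 4 of 6 tested regions lower and 0 higher, with a median relative ratio of 0.44. The strongest per kb in myoblasts, chr2:167409956-167413089, 47827 bases downstream of the TSS, read 74 (32.5-fold) and 94 (16.2-fold), a relative ratio of 0.48 (0.35 to 0.66). Next to it chr2:167398886-167402401 read 80 and 79, a relative ratio of 0.37, and chr2:167394854-167398458 read 68 and 74, a relative ratio of 0.41. All 4 regions called lay 27754 to 47827 bases downstream of Snai1. The 2 beyond them, nearer to Ube2v1 and AL589870.1, had relative ratios of 1.90 and 1.16. The TSS nearest to the region at 47827 bases was that of Gm11475, and nearest to the one at 27754 bases that of Gm11476. Which gene these regions act on was not tested.

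Zeb2 had 6 tested regions, of which 1 was higher and 2 lower. The higher one, chr2:44811423-44811829, 154628 bases downstream of the TSS and past the gene end, read 1 in myoblasts (3.38-fold) and 34 in myotubes (45.2-fold) within 407 bp. Its relative ratio was 6.56 with an interval of 2.14 to 518, since it rests on 1 myoblast read. Its nearest TSS belongs to Gtdc1. Of the lower pair, chr2:44822122-44823432 read 15 and 9, a relative ratio of 0.23 (0.087 to 0.55), and chr2:44832362-44835206 read 30 and 25, a relative ratio of 0.31.

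The 300 bases densest in H3K27ac of the higher Zeb2 region, chr2:44811523-44811822 (plus strand), are shown as the counterpart to the Twist2 sequence; they hold 1 read in myoblasts and 31 in myotubes, and 1 E-box, CATTTG, in capitals.
Zeb2 distal region: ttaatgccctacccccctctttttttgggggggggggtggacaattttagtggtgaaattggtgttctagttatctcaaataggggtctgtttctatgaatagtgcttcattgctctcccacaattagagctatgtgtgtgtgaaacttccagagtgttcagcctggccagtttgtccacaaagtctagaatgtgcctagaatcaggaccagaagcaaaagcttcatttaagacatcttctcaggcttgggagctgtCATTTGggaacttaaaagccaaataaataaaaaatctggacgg
Neither CAGGTG nor CAGCTG is in these letters; in all distal regions CAGCTG was found in 21.2% of the central 300 bases.

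Prrx1 had 3 of 5 tested regions lower and 0 higher. The lowest, chr1:165310805-165314134, upstream of the gene at -68666 bases from the TSS, read 52 (21.5-fold) and 36 (5.85-fold), a relative ratio of 0.26 (0.16 to 0.40). The strongest per kb in myoblasts among those tested, chr1:165153198-165154358 past the gene end, read 28 and 37, a relative ratio of 0.49 (0.30 to 0.84) that was not called with 1 read per position and strand (0.52) or when scaled by total reads alone (0.52). Twist1 had a single region, chr12:34724966-34726348, 83120 bases downstream, which read 14 and 11, a relative ratio of 0.30 (0.12 to 0.70). The only Snai2 region was 97 bp long and held no H3K27ac read. Over the whole 204 kb of Snai2 and its flanks H3K27ac was 0.676-fold in myoblasts and 0.569-fold in myotubes, below the genome mean in both, while its promoter was at 39.2-fold and 22.2-fold.

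The genes with the nearest promoter pattern, by Euclidean distance over the 12 log2 values, were not other members for any of the 7. For Twist2 they were Etv4, Glipr2 and Lfng (distances 1.68, 1.69 and 1.69, where the median promoter was 7.48 away), and for Zeb1 Hbp1, Ppp1cb and Ppard (1.74, 1.79 and 1.90, against 7.36). For Snai1 they were Efhd1, Cbx8 and Adcy9, for Snai2 Atp5g3, Kdelr1 and Fkbp3, for Prrx1 Nek11, Pon2 and Ap4e1, and for Twist1 Camkv, Cldn11 and Egr4. Among the members Snai2 and Zeb2 were closest, at 2.56, followed by Zeb1 and Zeb2 at 3.15 and Twist2 and Snai1 at 3.26. Twist1 was 9.36 or more from every other member. The distances describe single libraries and carry no test.

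The genes around these factors were given by lists, whose counts above the mean for H3K4me3 stand against 54.6% of all promoters in myoblasts and 54.3% in myotubes. The shares of all promoters called at 2-fold were 4.86% higher and 4.57% lower for H3K4me3 and 14.7% and 13.0% for H3K27ac. Of 11 relatives, 5 promoters were above the genome mean for H3K4me3 in each cell type. H3K27me3 was above it at 8 of them in myoblasts and 4 in myotubes, against 18.1% and 12.6% of all promoters. Among these Hand1 held 29 H3K27me3 reads in myoblasts (5.29-fold), as many as Twist1. Snai3, another Snail gene, was called higher in myotubes for H3K4me3 (7 and 18 reads, relative ratio 2.30) and H3K27ac (11 and 64, 3.74). Msc (musculin), a helix-loop-helix repressor of myogenic factors, was called lower for both (58 and 12 reads, 0.21; 72 and 3 reads, 0.038). The tendon factor Scx and Prrx2 stayed within 2-fold for both. The cofactor list, the E proteins and corepressors through which Twist, Snail and Zeb proteins work, was above the genome mean at 10 of 10 promoters in both cell types, with 0 of 10 called for H3K4me3 and 1 for H3K27ac, Hdac1 (7 and 28 reads, relative ratio 2.5).

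Of 18 epithelial genes, which these factors are known to repress, 5 promoters were above the genome mean for H3K4me3 in myoblasts and 6 in myotubes, with median folds of 1.84 and 1.16 against 5.07 and 4.65 over all promoters. Cdh1 held 4 and 12 H3K4me3 reads and 2 and 14 H3K27ac reads, under 20 in all and so not tested. The 1 epithelial call for H3K27ac was Esrp2, a splicing factor of epithelia, with 2 and 21 reads and a relative ratio of 5.06. Of 15 mesenchymal genes, 13 promoters were above the mean for H3K4me3 in myoblasts and 10 in myotubes. Over their bodies H3K36me3 was lower at 5 and higher at 1 of 14 tested, with a median relative ratio of 0.61, against 7.21% lower and 7.44% higher of all bodies. At their promoters Col3a1 (78 and 17 H3K4me3 reads, 0.22), Loxl2 (22 and 5, 0.25) and Col1a2 (34 and 15, 0.44) were called lower, and Acta2, smooth muscle actin, was called higher (71 and 182, 2.46).

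Of 10 inducers, 10 promoters were above the genome mean for H3K4me3 and for H3K27ac in both cell types. Tgfb3, a ligand of the TGF-beta pathway that switches on Snail and Zeb genes, was called higher for H3K4me3 (52 and 120 reads, relative ratio 2.21) and H3K27ac (63 and 222, 2.40). Hmga2, a chromatin protein known to activate Snai1 and Twist1, was called lower for both (116 and 41 reads, 0.35; 135 and 36 reads, 0.19). The ligands Tgfb1 and Tgfb2, both TGF-beta receptors and Smad2, Smad3 and Smad4 stayed within 2-fold for both marks. Over the bodies of the 10 inducers H3K36me3 was lower at 1 and higher at 0.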

How the data were processed

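Reads were deposited by the authors as counts of 1 per uniquely aligned read of 34 bp, after alignment to mm9 with Mosaik (per the paper's methods, default settings), and H3K4me3 and H3K4me1 peaks as MACS scores, with settings not given in the sources used here. No normalization was applied to the deposited counts, and duplicate removal is not stated. The myoblast H3K27me3 and H3K27ac peak lists were not used, because their names and labels disagree. Genes came from GENCODE M1 on the same build (NCBIM37). Reads on chromosomes 1 to 19 and X (2555806925 bases other than N) were extended to 150 bp, and midpoints were counted. Gene bodies had at least 500 bp. Ratios had 1 read added and intervals were exact Poisson or conditional binomial at 95%. With 1 library per group no test was possible and no p-value was computed. The members and gene lists were chosen with earlier results of these data known, and all members were named, with distal regions named by most H3K27ac reads per kb and largest call; other tested regions in the text were chosen after their values were seen. Of each list up to 3 genes called in each direction were named, and other list genes were added after their values were seen. The genes with the promoter pattern nearest to Zeb2 are not reported here. Call rule and intervals were tested on simulated data. The tools were scipy 1.17.1, pandas 2.3.3 and numpy 2.4.6 under Python 3.11.15, with matplotlib 3.10.9 for plots.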

Additional observations from a re-analysis of the deposited data

How the results depend on the processing

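With 1 library per group, intervals cover counting error only, and promoters with under 20 reads in both libraries, such as H3K27me3 at 6 of the 7 genes, cannot show a change at this depth. No paired analysis was possible because no group has more than 1 library. Of 147 counts and shares recomputed under the alternatives, 126 stayed within 1.5 times, and of 462 single ratios 45 got another call. The shares include that of all distal regions of the genome called lower, which ran from 23.9% to 27.8%. The counts that moved were small. Promoters with H3K27me3 above the background in myotubes were 1 instead of 0 with 2.5 kb either side of the TSS, with reads not extended and with reads extended to 250 bp, and in myoblasts 2 instead of 1 against the 100 kb either side and with thinned libraries. Promoters higher in myotubes were 1 instead of 2 for H3K27ac when scaled by total reads alone, with 5 reads added, in 1 kb and in 2.5 kb either side, and 1 instead of 2 for H3K4me2 when scaled by total reads alone, in 2.5 kb either side and at the 5′-most TSS. For H3K4me3 they were 0 instead of 1 in 2.5 kb either side and at the 5′-most TSS. Promoters lower in myotubes in 1 kb were 0 for H3K4me3 and 0 for H3K4me2, and for H3K4me2 1 with 1 read per position and strand. At the 5′-most TSS Zeb1 turned direction, to 0.67 for H3K4me3, 0.65 for H3K4me2 and 0.49 for H3K4me1. Over whole genes H3K27me3 was lower at 1 gene, Twist1 (0.41), instead of 0. Distal regions with higher H3K27ac were 1 instead of 2 at least 5 kb from any TSS and 6 with widened peaks, and 12 instead of 20 were lower without Twist2, the last pair of alternatives being chosen after seeing the data. H3K36me3 was lower over 4 gene bodies and the share of distal regions lower was 37.5% to 54.8% under every alternative run. Beyond these, the cause of a moved count was not tested.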

Other observations

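Of the coding genes next to these factors, Hdac9 is a histone deacetylase gene whose end lies within 100 kb of Twist1, and it was called higher in myotubes for 3 marks. Its promoter, 571218 bases from the Twist1 TSS, held 0 H3K4me3 reads in myoblasts, where 3 reads would be 1.38-fold, and 40 in myotubes (15.5-fold). This start was chosen by its H3K4me3 reads, all of them from myotubes, so the choice itself favours a higher call for H3K4me3. Any other annotated start of Hdac9 was not read. Hdac9 H3K27ac read 3 and 35, a relative ratio of 6.21, and H3K4me2 read 18 and 76, a relative ratio of 6.16. On the other side of Twist1, the neural helix-loop-helix gene Ferd3l had 0 H3K4me3 reads in both cell types and H3K27me3 of 33 reads (6.01-fold) in myoblasts and 9 (2.30-fold) in myotubes, a relative ratio of 0.52 that was not called. Around Snai1, Zeb2 and Prrx1 the promoters of Rnf114, Slc9a8, Spata2, Tmem189, Ube2v1, Gtdc1 and Gorab stayed within 2-fold for H3K4me3 and H3K27ac.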
